A study of Homo sapiens with 12 samples.

Results

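The genes described here are 8 recurrent oncogenes and tumour suppressors of lung cancer: NRAS, HRAS, NF1, STK11, KEAP1, NFE2L2, SMARCA4 and SMARCA2. They were chosen by name from the deposited expression tables, and all 8 were found among 26535 features. Messenger RNA was sequenced from H1299 and A549, established lines of human non-small-cell lung cancer, in 4 groups of 3 libraries. The groups were H1299 cells carrying a VGF lentivirus (VGF-OE), H1299 cells carrying the empty vector, A549 cells carrying the VGF lentivirus and A549 cells carrying the empty vector. The VGF gene codes for a neuropeptide precursor that cells secrete, and every group carried a lentiviral vector. H1299 was grown in RPMI-1640 and A549 in DMEM/F12, so line and medium cannot be told apart.

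NRAS and HRAS encode small GTPases that pass growth signals to the RAF, MEK and ERK kinases, and NF1 encodes neurofibromin, which switches RAS proteins off. STK11 encodes LKB1, the kinase that activates AMPK and its relatives. Among these relatives the salt-inducible kinases hold the CRTC coactivators of CREB out of the nucleus. KEAP1 delivers NRF2, the product of NFE2L2, to the CUL3 ubiquitin ligase, and NRF2 otherwise switches on antioxidant and detoxifying enzymes. SMARCA4 and SMARCA2 encode BRG1 and BRM, the alternative ATPase motors of SWI/SNF chromatin remodelling complexes.

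The lines differ in which of these genes are known to be altered. H1299 is known for an activating NRAS mutation and for lacking SMARCA4 protein, with STK11 and KEAP1 not mutated. A549 is known for truncating STK11 and SMARCA4 mutations and a KEAP1 missense mutation. These facts are background. The deposited tables measure how much transcript a gene gives, and they show neither which allele it came from nor whether protein was made.

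Library totals ran from 31378171 to 41919484 counts. With counts scaled to library size (CPM), VGF stood at 886 to 1114 CPM in H1299 with its vector and at 77.2 to 90.5 CPM in H1299 without it. In A549 it stood at 1201 to 1361 CPM with its vector and at 2.01 to 2.74 CPM without it. The libraries thus followed their titles. A549 is known to lack CDKN2A, and the gene had 5158 to 7075 counts per H1299 library, against 0 to 51 per A549 library. Summed over 5 epithelial markers, H1299 libraries held 1101 to 1251 CPM, against 5315 to 7077 CPM in A549 libraries, and the adhesion gene CDH1 had 0 counts in all 6 H1299 libraries. A549 VGF library 2 stood apart in endothelial genes, which bears on SMARCA4 and is taken up there.

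All 8 genes were transcribed in all 12 libraries, including those whose protein is known to be lost or truncated. Compared per length as deposited FPKM, NFE2L2 and KEAP1 were high in both lines, and SMARCA4 was the lowest of the 8 in every group. Among genes of at least 1 FPKM, SMARCA4 lay at percentile 28.9 in H1299 VGF cells, 28.6 in H1299 empty-vector cells, 17.8 in A549 VGF cells and 14.6 in A549 empty-vector cells. NFE2L2 lay at 84.9, 85.0, 89.6 and 89.6 in the same 4 groups.

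The order between these ends differed by line. In H1299 empty-vector cells NRAS (41.7 ± 1.39 FPKM, SD, n = 3) and NFE2L2 (41.4 ± 1.59) led and were within their spread, followed by KEAP1 (37.6 ± 2.33), STK11 (24.0 ± 1.70), HRAS (19.9 ± 1.68), NF1 (7.63 ± 0.170), SMARCA2 (6.22 ± 0.0868) and SMARCA4 (5.54 ± 0.211). In A549 empty-vector cells NFE2L2 (50.1 ± 2.72 FPKM) and KEAP1 (35.4 ± 1.76) led, followed by HRAS (20.4 ± 1.31), NF1 (18.0 ± 0.179), STK11 (16.8 ± 0.456), NRAS (16.7 ± 0.735), SMARCA2 (10.07 ± 0.823) and SMARCA4 (2.93 ± 0.325). STK11 and NRAS did not differ there beyond their spread. With VGF the order differed in a few places. NFE2L2 (42.1 ± 3.21 FPKM) and NRAS (41.3 ± 2.32) changed places within their spread in H1299. In A549 NRAS (18.5 ± 1.46) stood between HRAS (19.6 ± 0.429) and NF1 (17.5 ± 0.373), within the spread of both, and above STK11 (15.9 ± 0.866). SMARCA4 (5.68 ± 0.826) and SMARCA2 (6.29 ± 0.637) were also within their spread in H1299 with VGF. NRAS was thus a leading gene of the 8 in H1299, and in A549 it was the fourth with VGF and the sixth with empty vector.

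**Figure D1:**
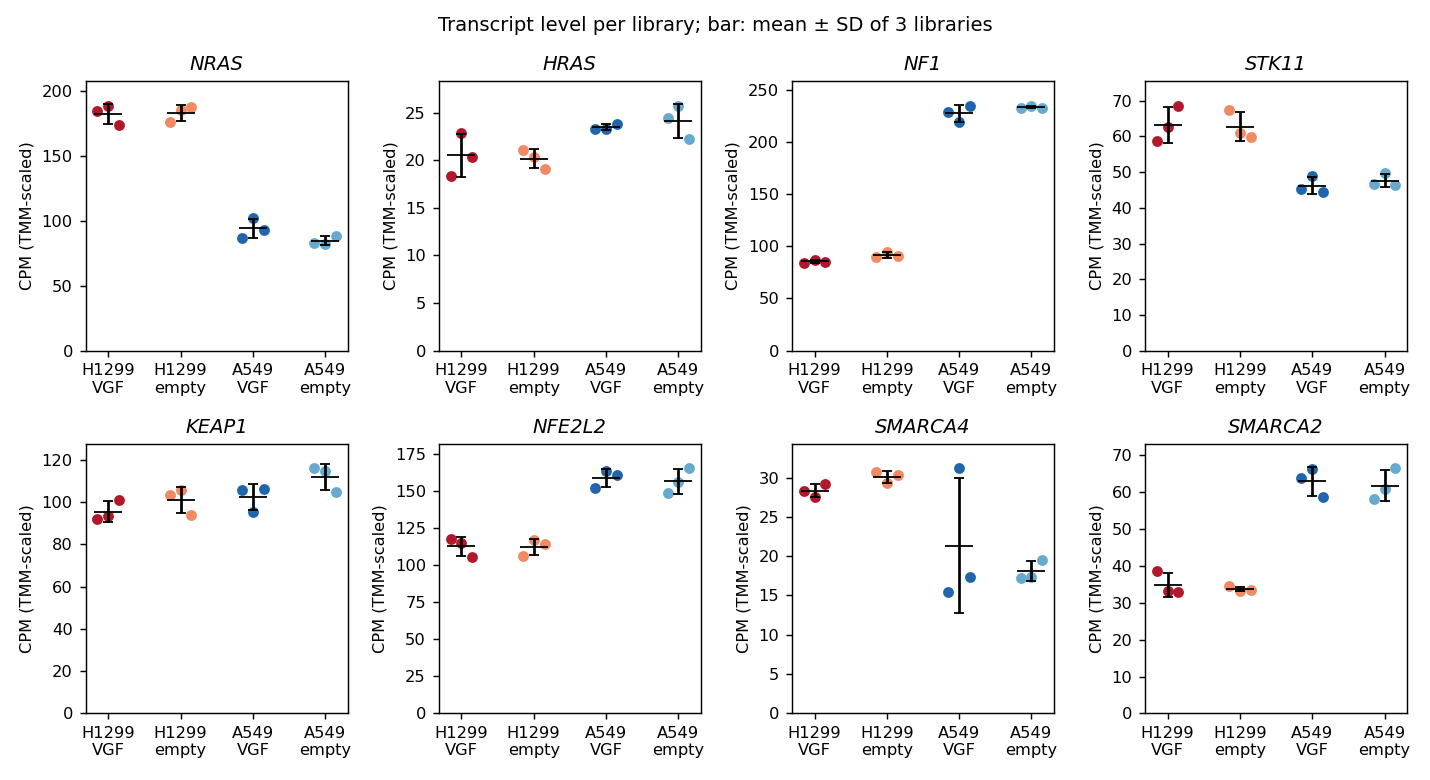
Level of each gene in CPM scaled by TMM factors (y axis, from 0), by group (x axis); points are libraries, and bars show the mean ± SD of 3. NRAS, STK11 and SMARCA4 sit higher in H1299, NF1, SMARCA2 and NFE2L2 higher in A549, and A549 VGF library 2 stands out in SMARCA4 at 31.2 CPM.

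Differences between the lines were tested on the counts of 18228 features by edgeR's quasi-likelihood test, and called at a Benjamini-Hochberg adjusted p under 0.05. With empty vector 7 of the 8 genes were called, 3 higher and 4 lower in H1299 than in A549, against 77.2% of all tested features, 38.5% higher and 38.6% lower. With VGF 5 of the 8 were called, 2 higher and 3 lower, against 77.3% of all features, 38.2% higher and 39.1% lower. The same 5 genes were called in 1 direction with both vectors, as were 71.2% of all features. The libraries of the lines did not overlap for 7 of the 8 genes with empty vector and for 6 with VGF, against 81.0% and 79.5% of all features. The lines differ in most of their transcripts. The number of these genes called lay somewhat above the background share with empty vector and below it with VGF. It is not read as a result about the 8 genes. Their median absolute log2 fold change was 0.61 with empty vector, against 0.97 over all features, and 0.47 with VGF, against 0.97. What differs between the 8 is the direction and the size, and these are given by gene.

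NRAS (ENSG00000213281, GRCh38 chr1:114704469-114716894, minus strand) was about 2-fold higher in H1299, the line in which it is mutated. It had 184, 188 and 173 CPM in H1299 VGF libraries, 176, 185 and 188 in H1299 empty-vector libraries, 87.0, 102 and 92.9 in A549 VGF libraries and 83.0, 82.2 and 88.4 in A549 empty-vector libraries. Every H1299 library stood above every A549 library. In such bulk libraries a smaller share of cells with a transcript and less of it per cell cannot be told apart. With empty vector the group means were 183 ± 6.11 CPM in H1299 and 84.5 ± 3.41 CPM in A549 (SD, n = 3). The log2 fold change was 1.12 (SE 0.0611, adjusted p = 2.14e-09). With VGF it was 0.95 (SE 0.0609, adjusted p = 1.01e-08). Of all tested features, 45.2% differed at least as much between the lines with empty vector.

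HRAS (ENSG00000174775, chr11:532242-537287, minus strand), its paralog, was almost level between the lines. It had 18.3, 22.8 and 20.4 CPM in H1299 VGF libraries, 21.1, 20.3 and 19.1 in H1299 empty-vector libraries, 23.3, 23.2 and 23.8 in A549 VGF libraries and 24.4, 25.7 and 22.2 in A549 empty-vector libraries. With either vector the lines did not overlap, but the gap between them was small. HRAS was 1.20-fold lower in H1299 with empty vector (log2 fold change -0.26, SE 0.0891, adjusted p = 0.0177). That call was lost without A549 empty-vector library 2 (adjusted p = 0.0931), without H1299 empty-vector library 3 (0.0692), with upper-quartile scaling (0.132) and in the deposited FPKM (log2 fold change -0.03, adjusted p = 0.708). With VGF the log2 fold change was -0.19 (adjusted p = 0.0635), which passed without H1299 VGF library 2 (0.0149).

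The balance of the paralogs therefore differed by line. Per length, the ratio of NRAS to HRAS was 2.09 ± 0.262 in H1299 VGF cells, 2.11 ± 0.234 in H1299 empty-vector cells, 0.944 ± 0.0957 in A549 VGF cells and 0.825 ± 0.0905 in A549 empty-vector cells (FPKM ratio, SD, n = 3). The lowest H1299 library had a ratio of 1.84 and the highest A549 library 1.05, so the lines did not overlap.

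NF1 (ENSG00000196712, chr17:31094927-31382116, plus strand) showed the largest difference of the 8 in the counts, and it was lower in H1299. It had 84.4, 87.2 and 85.2 CPM in H1299 VGF libraries, 89.5, 94.6 and 90.2 in H1299 empty-vector libraries, 229, 219 and 235 in A549 VGF libraries and 233, 235 and 232 in A549 empty-vector libraries. The libraries of each line lay close together and far from the other line. NF1 was 2.55-fold lower in H1299 with empty vector (log2 fold change -1.35, SE 0.0417, adjusted p = 7.78e-12) and 2.66-fold lower with VGF (-1.41, SE 0.0418, adjusted p = 5.45e-12). Still, 38.9% of all features differed at least as much with empty vector. In the deposited FPKM (log2 of FPKM plus 1) NF1 was at -1.14 with empty vector, and NRAS differed more, at 1.27. The annotation holds 12 NF1 pseudogenes, of which the tables hold 0, and how reads shared with them were counted is not given in the sources used here.

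Beyond these 3 genes the RAS pathway did not move one way. The list held 38 tested exchange factors, GTPase-activating proteins, adaptors and effectors of RAS. With empty vector 12 were called higher and 18 lower in H1299, against 38.5% and 38.6% of all features. Their median log2 fold change was -0.22, against 0.01 over all features. In the deposited FPKM (log2 of FPKM plus 1, limma) the split turned to 15 higher and 12 lower of 35 tested. Among negative regulators, RASA1, a GTPase-activating protein like neurofibromin, had 140.0 ± 5.10 CPM in H1299 and 35.6 ± 0.398 CPM in A549 (log2 fold change 1.98, adjusted p = 1.1e-12), opposite to NF1. SPRED3, of the family that brings neurofibromin to RAS, was also higher (2.02, adjusted p = 6.43e-09). RGL2, an exchange factor for the RAS relative RAL, was higher too (1.70, adjusted p = 1.74e-09). On the other side, KSR1, a scaffold for RAF and MEK, was lower in H1299 (-3.07, adjusted p = 4.13e-11), as were the exchange factor RASGRF2 (-2.58, adjusted p = 2.43e-08) and the kinase ARAF (-1.94, adjusted p = 7.95e-12).

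Genes known to respond to ERK signalling leaned towards H1299. With empty vector 11 of 16 were higher and 5 lower, against 38.5% and 38.6% of all features. The median log2 fold change was 1.88. With VGF 11 were higher and 4 lower, against 38.2% and 39.1% of all features. The median was then 1.13, against -0.01 over all features. This list too was chosen with earlier results of these data known, so it is not independent evidence. HMGA2, a chromatin architectural protein, had 1399 ± 45.3 CPM in H1299 and 48.0 ± 5.58 CPM in A549 (log2 fold change 4.87, adjusted p = 8.07e-14). FOSL1, an AP-1 subunit, was higher by 4.24 (adjusted p = 6.63e-11), and SPRY4, a feedback inhibitor, by 3.10 (adjusted p = 3.91e-11). The list was not uniform. DUSP4, a phosphatase of ERK, had 0.341 ± 0.359 CPM in H1299 and 204 ± 9.14 CPM in A549 (-9.19, adjusted p = 1.82e-11). SPHK1 (-2.92, adjusted p = 1.33e-06), a lipid kinase, and IER3 (-2.73, adjusted p = 3.78e-11), an early response gene, were also lower in H1299.

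STK11 (ENSG00000118046, chr19:1177558-1228435, plus strand) was modestly higher in H1299, and its transcript was abundant in A549, where the gene is known to be truncated. It had 58.6, 62.5 and 68.7 CPM in H1299 VGF libraries, 67.4, 61.1 and 59.9 in H1299 empty-vector libraries, 45.2, 49.0 and 44.5 in A549 VGF libraries and 46.8, 49.7 and 46.3 in A549 empty-vector libraries. Every H1299 library stood above every A549 library. The gene was 1.32-fold higher in H1299 with empty vector (log2 fold change 0.40, SE 0.0694, adjusted p = 0.00016) and 1.37-fold higher with VGF (0.45, SE 0.0695, adjusted p = 5.45e-05). A difference of that size or more was shared by 76.1% of features with empty vector.

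Partners and substrates of LKB1 split to both sides. With empty vector 12 of 26 were called higher and 11 lower in H1299, against 38.5% and 38.6% of all features. The median log2 fold change was 0.22, and the counts were 15 and 9 in FPKM. These counts are not read as a result about the list. The split ran within the kinase family that LKB1 activates. MARK1, MARK3 and MARK4, which act on microtubule-associated proteins, were higher in H1299. MARK1 had 8.10 ± 0.713 CPM in H1299 and 0.0776 ± 0.134 in A549 (adjusted p = 3.8e-05), while MARK4 (log2 fold change 1.61, adjusted p = 3.82e-10) and MARK3 (1.36, adjusted p = 5.23e-11) differed less. NUAK2 (-3.67, adjusted p = 3.02e-10) and BRSK2 (-4.25, adjusted p = 4.06e-09) were lower in H1299. SIK1, a salt-inducible kinase that is itself a CREB target, had 1 count over the 3 H1299 empty-vector libraries, against 35.7 ± 6.91 CPM in A549 (adjusted p = 5.17e-09). With VGF it had 0 counts in 3 H1299 libraries and 43.0 ± 14.8 CPM in A549. Taking 3 counts over the group as the limit that a count of 0 allows, for counting error only, it was at least 1762-fold lower in H1299 with VGF.

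Genes known to respond to CREB and its CRTC coactivators were lower in H1299 almost without exception. Of 12 tested, 0 were higher and 11 lower with empty vector, against 38.5% and 38.6% of all features. The median log2 fold change was -2.70. The counts were the same with VGF, against 38.2% and 39.1% of all features, with a median of -3.47. The list is not independent evidence, since earlier results of these data were known when it was chosen. PER1 was the gene not called (log2 fold change -0.17, adjusted p = 0.145). AREG, an EGF receptor ligand, had 0.293 ± 0.205 CPM in H1299 and 79.7 ± 5.35 CPM in A549 (-8.08, adjusted p = 2.79e-12). PDE4B, a cyclic AMP phosphodiesterase, had 0.871 ± 0.353 CPM in H1299 and 157.9 ± 12.2 CPM in A549 (-7.51, adjusted p = 4.36e-12). INSL4, an insulin-like peptide gene, had 0, 6 and 0 counts in H1299 and 22.5 ± 7.04 CPM in A549 (adjusted p = 6.18e-08).

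The palindromic CREB element TGACGTCA was searched in the stretch from 250 bases before to 50 after each start (RefSeq, GRCh38.p14), and 1.85% of 35116 such windows held it. Of the 8 genes NF1 held it, centred at -162 from its start. In the CREB list AREG and CREM held it, 2 of 12 matched genes and 3 of 31 windows. The stretches around the element, in capitals, are shown for NF1 and AREG (NF1 chr17:31094801-31094828, AREG chr4:74445061-74445088, both plus strand).
NF1: aggagttagaTGACGTCAcctccaggag
AREG: ggccgggcctTGACGTCAtgggctgcgg
A match of letters is a description of the sequence and no measure of binding. Its part in the level of NF1 or AREG was not tested.

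KEAP1 (ENSG00000079999, chr19:10486120-10503741, minus strand) was close to level between the lines, although it is known to be mutated in A549. It had 91.9, 93.4 and 101 CPM in H1299 VGF libraries, 104, 106 and 94.0 in H1299 empty-vector libraries, 106, 95.5 and 106 in A549 VGF libraries and 116, 115 and 105 in A549 empty-vector libraries. The lines overlapped with either vector. With empty vector the log2 fold change was -0.15 (SE 0.0653, 95% interval -0.29 to -0.0039, adjusted p = 0.0575), and with VGF it was -0.10 (SE 0.0655, 95% interval -0.24 to 0.04, adjusted p = 0.168). The empty-vector difference lay near the threshold. It passed with DESeq2 (adjusted p = 0.0455) and limma voom (0.0451), and without A549 empty-vector library 3 (0.0261) or H1299 empty-vector library 2 (0.0488), and in the deposited FPKM its sign was positive (0.08, adjusted p = 0.251).

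NFE2L2 (ENSG00000116044, chr2:177227595-177392697, minus strand) was lower in H1299. It had 118, 115 and 106 CPM in H1299 VGF libraries, 107, 117 and 114 in H1299 empty-vector libraries, 152, 164 and 161 in A549 VGF libraries and 149, 157 and 166 in A549 empty-vector libraries. The lines did not overlap. The gene was 1.39-fold lower in H1299 with empty vector (log2 fold change -0.48, SE 0.0579, adjusted p = 5.77e-06) and 1.41-fold lower with VGF (-0.49, SE 0.0579, adjusted p = 4.26e-06). A second transcript unit on the same strand, AC019080.1, covers 17.6% of its exonic bases and was not used here.

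Against this 1.39-fold step in NFE2L2, the 32 genes listed as NRF2 targets were all called lower in H1299, with either vector. Of all features, 38.6% were called lower with empty vector and 39.1% with VGF. Their median log2 fold change was -3.53 with empty vector and -3.60 with VGF, and the range with empty vector ran from -10.83 for AKR1C3 to -1.59 for CBR1. NQO1, a quinone reductase, was lower in H1299 (log2 fold change -4.22, SE 0.0441, adjusted p = 2.04e-15), and GCLM, a subunit of the enzyme that starts glutathione synthesis, differed by -3.30 (adjusted p = 2.19e-13). AKR1B10, an aldo-keto reductase, had 7.20 ± 10.5 CPM in H1299 and 7784 ± 151 CPM in A549 (adjusted p = 9.6e-08). AKR1C2, a relative, had 4.15 ± 2.73 CPM in H1299 and 6032 ± 41.9 CPM in A549 (adjusted p = 4.43e-12). DESeq2 gave no adjusted p for AKR1B10 or AKR1C3. The AKR1C genes are near-identical paralogs, and the division of reads between them is uncertain. Such targets are known to be high where KEAP1 is mutated. The part of that mutation in these values was not tested, and it cannot be told apart from line and medium here. The list is not independent evidence, since results of these data were known when it was written.

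Proteins that work with KEAP1 and NRF2 differed less, with a median log2 fold change of -0.32 with empty vector. Of 15 tested, 4 were called higher and 8 lower in H1299, against 38.5% and 38.6% of all features. In FPKM the counts were 5 and 4. BACH1, a repressor at the elements NRF2 binds, was higher in H1299 (0.92, adjusted p = 2.06e-09), as were its relative BACH2 (2.14, adjusted p = 0.000152) and the NRF2 relative NFE2L3 (1.34, adjusted p = 1.92e-09). The small MAF partners of NRF2 were lower, MAFK at a log2 fold change of -1.90 (adjusted p = 3.21e-09) and MAFG at -1.30 (adjusted p = 3.52e-09). SQSTM1, which sequesters KEAP1 and is an NRF2 target, had 524 ± 23.1 CPM in H1299 and 1041 ± 51.9 CPM in A549 (-0.99, adjusted p = 1.5e-08). CUL3, the ligase scaffold, had 127.5 ± 4.82 CPM in H1299 and 115 ± 8.08 CPM in A549 (0.15, adjusted p = 0.03).

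KEAP1 was the member of the 8 whose start window held the letters TGACNNNGC, the core of the antioxidant response element that NRF2 binds. They were searched on both strands of the same windows, and 13.3% of 35116 held them, so a match is again no measure of binding. Among the NRF2 targets 10 of 30 windows did, from 9 of 24 matched genes. KEAP1 had a match on each strand, centred at -50 and -27 from its start. They are shown beside those of GCLM, TXNRD1 and GPX2, with the matched letters in capitals, because the plus-strand match of KEAP1 and that of GCLM have the same 9 letters while the genes themselves differed so unequally between the lines.
KEAP1, minus strand, chr19:10502807-10502835: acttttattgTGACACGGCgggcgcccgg
KEAP1, plus strand, chr19:10502784-10502812: caggtcaccaTGACTAAGCagagccgggc
GCLM, plus strand, chr1:93909446-93909474: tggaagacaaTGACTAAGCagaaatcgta
TXNRD1, plus strand, chr12:104215670-104215698: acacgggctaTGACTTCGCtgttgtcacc
GPX2, plus strand, chr14:64942849-64942877: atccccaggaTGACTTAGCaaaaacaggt
Relative to A549 with empty vector, TXNRD1, thioredoxin reductase, differed in H1299 by a log2 fold change of -3.02 (adjusted p = 1.98e-13) and GPX2, a glutathione peroxidase, by -8.68 (adjusted p = 1.09e-11), against -0.15 for KEAP1.

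**Figure D2:**
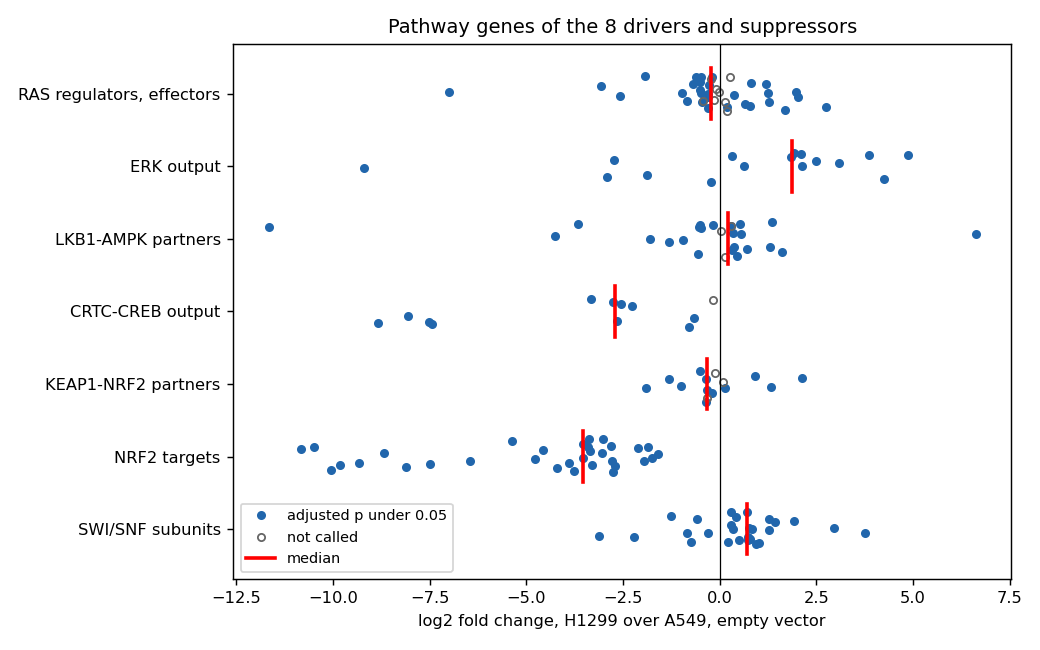
Log2 fold change of H1299 over A549 with empty vector (x axis) for each tested gene of 7 pathway lists (rows); filled points passed an adjusted p of 0.05, open points did not, and red lines are medians. All 32 NRF2 targets and 11 of 12 CREB-responsive genes lie left of 0 and passed, while RAS regulators and LKB1 partners spread to both sides.

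SMARCA4 (ENSG00000127616, chr19:10960825-11079426, plus strand) was higher in H1299 with empty vector, although both lines are known to lack a working protein. It had 28.2, 27.5 and 29.2 CPM in H1299 VGF libraries, 30.6, 29.3 and 30.3 in H1299 empty-vector libraries, 15.5, 31.2 and 17.3 in A549 VGF libraries and 17.3, 17.4 and 19.5 in A549 empty-vector libraries. A549 VGF library 2 stood above every H1299 library, and the other 5 A549 libraries stood below all of them. With empty vector the group means were 30.1 ± 0.728 CPM in H1299 and 18.1 ± 1.28 CPM in A549 (SD, n = 3). The log2 fold change was 0.74 (SE 0.194, adjusted p = 0.00375). With VGF it was 0.40 (SE 0.192, 95% interval -0.01 to 0.82, adjusted p = 0.0715). Without A549 VGF library 2 it was 0.81 (adjusted p = 2.53e-06), and the empty-vector value was 0.75 (adjusted p = 1.2e-06).

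A549 VGF library 2 had 1220 SMARCA4 counts, against 452 in A549 VGF library 1, 603 in library 3 and 583 to 650 in the A549 empty-vector libraries. The same library held 430.2 CPM summed over 12 endothelial markers, against 80.6 CPM in A549 VGF library 1, 85.7 CPM in library 3 and 71.5 to 82.0 CPM in A549 empty-vector libraries. H1299 libraries held 27.9 to 32.8 CPM with VGF and 26.5 to 28.8 CPM with empty vector. ESAM and EGFL7 made up 26.4% of the sum in that library and 95.1 to 98.8% in the other A549 libraries, so most of its excess lay in the other 10 markers. Markers at 0 counts numbered 0 in A549 VGF libraries 1 and 2, 2 in A549 VGF library 3, 4 to 7 in A549 empty-vector libraries and 3 to 5 in H1299 libraries. CDKN2A had 51 counts and CDKN2B 30 in A549 VGF library 2, against 0 in the other A549 VGF libraries. A549 empty-vector library 1 had 11 counts of CDKN2A, and A549 empty-vector library 2 had 4 of CDKN2B. The part of these transcripts in the SMARCA4 value was not tested.

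**Figure D3:**
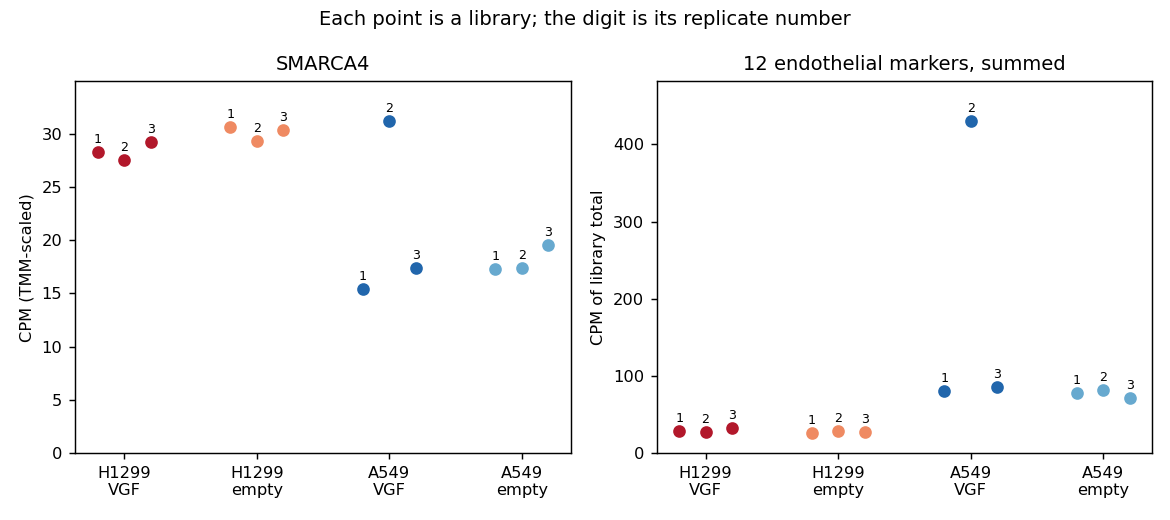
SMARCA4 in CPM scaled by TMM factors (left, y axis from 0) and 12 endothelial markers summed in CPM of the library total (right), by group; each point is a library with its replicate number. A549 VGF library 2 is the highest of its group in both panels, at 31.2 and 430.2 CPM.

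SMARCA2 (ENSG00000080503, chr9:1980290-2193624, plus strand), the other ATPase, was lower in H1299. It had 38.7, 33.2 and 32.8 CPM in H1299 VGF libraries, 34.4, 33.2 and 33.5 in H1299 empty-vector libraries, 63.8, 66.4 and 58.7 in A549 VGF libraries and 58.1, 60.8 and 66.5 in A549 empty-vector libraries. The lines did not overlap, and A549 VGF library 2 did not stand apart here. SMARCA2 was 1.83-fold lower in H1299 with empty vector (log2 fold change -0.87, SE 0.0748, adjusted p = 1.92e-07) and 1.80-fold lower with VGF (-0.85, SE 0.0748, adjusted p = 2.5e-07).

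The ATPases were thus at similar transcript levels in H1299 and unequal in A549. Per length, the ratio of SMARCA2 to SMARCA4 was 1.12 ± 0.201 in H1299 VGF cells, 1.12 ± 0.0450 in H1299 empty-vector cells, 3.37 ± 1.22 in A549 VGF cells and 3.44 ± 0.116 in A549 empty-vector cells (FPKM ratio, SD, n = 3). The ratio in A549 VGF library 2 was 2.10, the lowest of A549, and the highest H1299 ratio was 1.33. The deposited FPKM values do not always follow the counts. SMARCA4 in H1299 VGF library 2 had 6.63 FPKM, the highest of its group, from 1097 counts, the lowest. By a smaller margin, SMARCA2 in H1299 empty-vector library 1 had 6.16 FPKM, the lowest of its group, from 1545 counts, the highest.

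The remaining SWI/SNF subunits leaned towards H1299. With empty vector 20 of 27 were higher and 7 lower, against 38.5% and 38.6% of all features. With VGF 19 were higher and 7 lower, against 38.2% and 39.1% of all features. The median log2 fold change was 0.70 with empty vector and 0.52 with VGF. DPF1, a subunit known from neurons, was higher by 1.93 (adjusted p = 3.23e-06), BCL7C by 1.43 (adjusted p = 1.19e-09) and ARID2, a subunit of the PBAF form, by 1.28 (adjusted p = 1.18e-09). The lower subunits included SMARCD3 (-2.21, adjusted p = 4.94e-06), SMARCE1 (-1.25, adjusted p = 1.7e-10) and SS18L1 (-0.84, adjusted p = 8.13e-07). SMARCE1 had 68.1 ± 1.23 CPM in H1299 and 161.7 ± 7.33 CPM in A549, lower in H1299 like SMARCA2.

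Position on the chromosome was a further property that the choice of genes had not used. Genes whose start lay within 1 Mb of each of the 8 were compared between the lines with empty vector, among those with a mean of at least 5 CPM. Over 11732 genes of that level the median log2 fold change was 0.0003, with quartiles of -0.76 and 0.68. Of all 18228 tested features, whatever their level, 38.5% were called higher and 38.6% lower, so counts of called neighbours are high anywhere. Around NF1, 12 of 13 neighbours were lower in H1299 and 0 higher, with a median of -1.02. Around NRAS 7 of 10 were higher and 3 lower (median 0.59), and around STK11 34 of 53 were higher and 11 lower (median 0.40), the same as the value of STK11 itself. Around HRAS 29 of 36 were lower and 3 higher (median -0.73), while HRAS differed by -0.26.

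KEAP1 and SMARCA4 start 0.457 Mb apart on chromosome 19 and share much of a neighbourhood, which was higher in H1299. Around SMARCA4 28 of 42 neighbours were higher and 8 lower (median 0.62), close to its own 0.74. Around KEAP1 30 of 43 were higher and 9 lower (median 0.65, lower quartile 0.19), while KEAP1 itself was at -0.15, below that quartile. NFE2L2 and SMARCA2 had 6 and 2 neighbours of this level, with medians of -0.05 and 0.50, against their own -0.48 and -0.87. Gene copy number was not measured, and its part in these values was not tested.

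**Figure D4:**
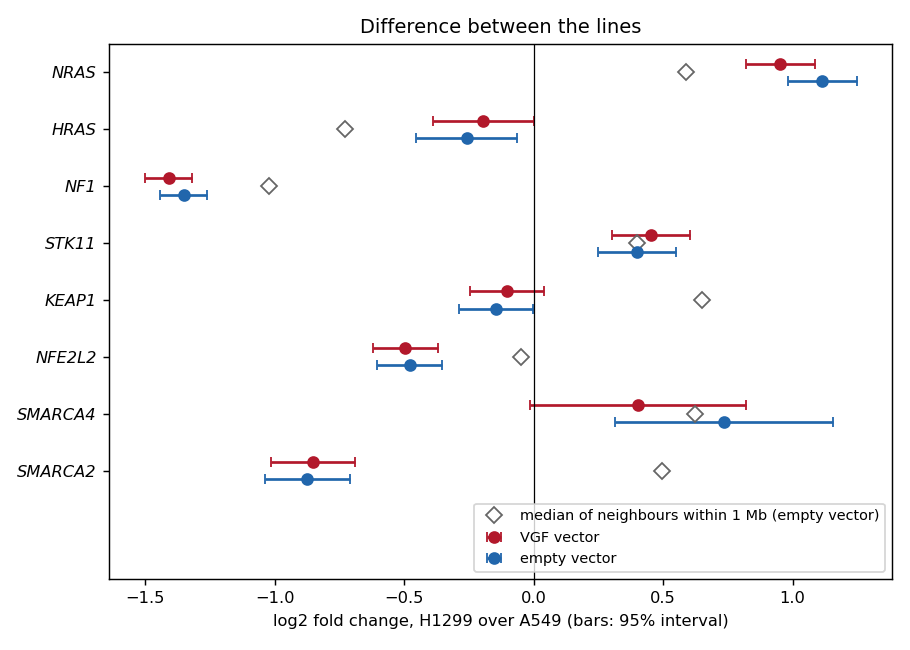
Log2 fold change of H1299 over A549 (x axis) for each gene (rows) with VGF (red) or empty vector (blue), with 95% intervals; grey diamonds are the median of neighbours within 1 Mb with empty vector. STK11 lies on the median of its neighbours at 0.40, and KEAP1 lies at -0.15 beside a neighbour median of 0.65.

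For NRAS and NF1, which differed by at least 1 on the log2 scale with empty vector, the 2 genes of most similar pattern were sought by Pearson correlation of log2 CPM over the 12 libraries. Of these, CDK7, a kinase of the cell cycle and of transcription, reached r = 0.998 with NRAS. NF1 was most like CLU, a secreted chaperone (r = 1.00), and SLC12A7, an ion cotransporter (r = 0.999). The 12 libraries come from 2 lines, and such values were common: 23.8% of 11137 genes reached r = 0.95 with NRAS and 28.7% with NF1.

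VGF overexpression called none of the 8 genes in either line. By edgeR 0 of 8 passed in H1299, where 0.011% of all features were called, and 0 of 8 in A549, where 0.79% were. DESeq2 and limma voom also called 0 of the 8 in each line, and 1 of the 8 had an unadjusted p under 0.05 in each, NF1 in H1299 and NRAS in A549, against 7.8% and 13.9% of all features. The intervals bound what could have been missed, and they were narrow for all but SMARCA4.

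In H1299, NF1 came closest, with 85.6 ± 1.46 CPM with VGF and 91.4 ± 2.75 CPM with empty vector (log2 fold change -0.09, 95% interval -0.18 to -0.0048, adjusted p = 0.632 by edgeR). All 3 VGF libraries stood below all 3 empty-vector libraries for NF1, and the same held for SMARCA4 (-0.09, 95% interval -0.50 to 0.33, adjusted p = 1). These are 2 of 8 genes without overlap, and 12.7% of all features had none. The fit used 1 estimate of spread per gene for all 12 libraries, so the SMARCA4 interval does not describe H1299 libraries alone. The SD of SMARCA4 in log2 CPM was 0.0439 with VGF and 0.0351 with empty vector in H1299. In A549 with VGF, the group of library 2, it was 0.543. KEAP1 differed by -0.08 (95% interval -0.22 to 0.06), and the other 5 by 0.05 or less in size, with 95% intervals within -0.17 to 0.22.

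In A549, NRAS came closest, with 94.0 ± 7.63 CPM with VGF and 84.5 ± 3.41 CPM with empty vector (log2 fold change 0.15, 95% interval 0.02 to 0.29, adjusted p = 0.289 by edgeR). The groups overlapped for all 8 genes, against 18.4% of all features without overlap. KEAP1 differed by -0.13 (95% interval -0.27 to 0.02, adjusted p = 0.428). SMARCA4 differed by 0.25 (95% interval -0.18 to 0.67, adjusted p = 0.661), and without A549 VGF library 2 by -0.14. The other 5 differed by 0.04 or less in size, with 95% intervals within -0.23 to 0.19.

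The VGF effect was also compared between the lines, and 0 of the 8 genes were called, against 0.159% of all features. By unadjusted p under 0.05 the count was 0, against 11.2% of all features, and it was 0 by DESeq2 and limma voom. The difference of H1299 minus A549 was -0.33 for SMARCA4 (95% interval -0.92 to 0.26, adjusted p = 0.715), -0.16 for NRAS (95% interval -0.35 to 0.02, adjusted p = 0.503) and between -0.06 and 0.07 for the other 6.

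Of 166 tested genes in the 7 pathway lists, VGF called 0 in H1299 by edgeR, with 22 at an unadjusted p under 0.05 (7.8% of all features were), 2 called by DESeq2 and 0 by limma voom. In A549 edgeR called 2, both lower, with 33 at an unadjusted p under 0.05 (13.9% of all features were), 10 called by DESeq2 and 6 by limma voom. SHC1, an adaptor between receptors and RAS, had 414 ± 1.94 CPM with VGF and 484 ± 10.9 CPM with empty vector (log2 fold change -0.23, adjusted p = 0.0263). DUSP5, a nuclear phosphatase of ERK, had 64.9 ± 3.29 CPM with VGF and 86.6 ± 5.20 CPM with empty vector (-0.42, adjusted p = 0.021). Neither call was firm. SHC1 was lost without A549 empty-vector library 1 (adjusted p = 0.0941) or 2 (0.0824) or A549 VGF library 1 (0.0602) or 3 (0.0637), and DUSP5 without A549 empty-vector library 2 (0.0539) or 3 (0.066) or A549 VGF library 2 (0.0572) or 3 (0.0598). DUSP5 was also the 1 gene of these lists that edgeR called for a difference of the VGF effect between the lines (0.76, adjusted p = 0.0125), where DESeq2 called 4 and limma voom 1. Among markers of other cell types, CD68, a lysosomal protein of macrophages that many lines also make, had 52.6 ± 2.96 CPM with VGF and 70.5 ± 5.28 CPM with empty vector in A549 (-0.42, adjusted p = 0.0187). It was lost without A549 empty-vector library 2 (0.0576) or 3 (0.0594) or A549 VGF library 3 (0.0598).

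**Figure D5:**
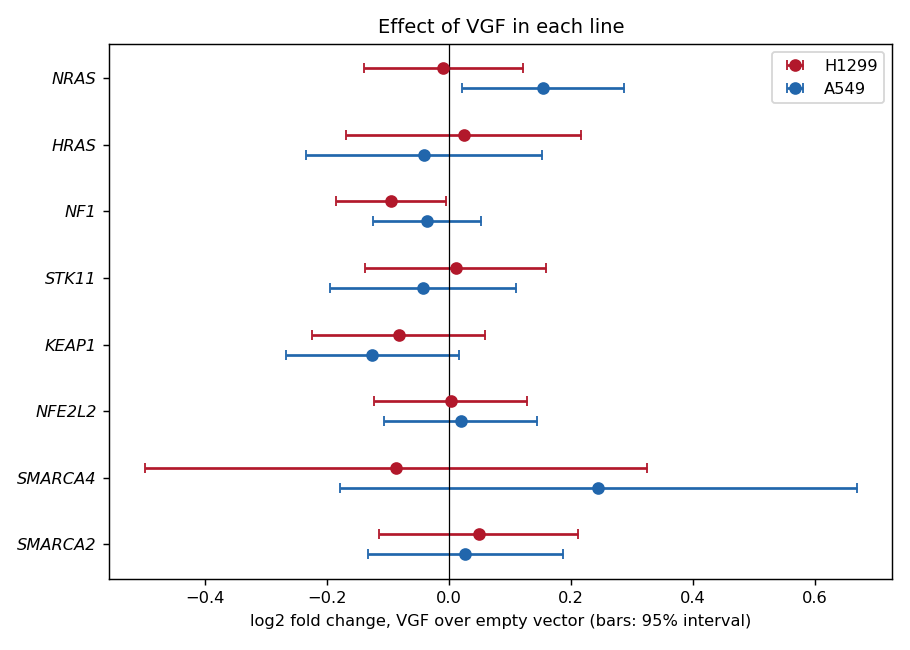
Log2 fold change of VGF over empty vector (x axis) for each gene (rows) in H1299 (red) and A549 (blue), with 95% intervals. The values lie between -0.13 and 0.25, and the widest intervals are those of SMARCA4.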

How the data were processed

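The authors deposited raw counts per feature and FPKM values (counts per length and depth) for 12 libraries. The submitters' processing notes name GRCh38 and DESeq2. No aligner, counter, strand setting or annotation is given in the sources used here. Of the lines in each table, 18 stray ones were left out, and 64 symbols were restored by ID from GENCODE release 29. Groups come from titles and characteristics, since the treatment note of every library speaks of the empty vector. The design text calls replicates independent, and p-values cover only the spread between these libraries.

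Counts were fitted with edgeR 4.0.16 (R 4.3.3) as 4 group means, with TMM scaling and filterByExpr, and tested by the quasi-likelihood F test over 18228 features with Benjamini-Hochberg adjustment. Scripts were tested on simulated data. CPM use the library total times its TMM factor (0.919 to 0.940 in A549, 1.06 to 1.09 in H1299); sums over markers use the total alone. DESeq2 1.42.0, limma 3.58.1, other scalings and filters, FPKM, a replicate block and leaving out each library were alternatives. Replicates of a group differed by more than sampling noise (chi-square per degree of freedom 7.82 to 21.8).

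The 8 genes and the pathway lists were chosen with earlier results of these data known. From each list up to 3 called genes per direction with a group mean of at least 5 CPM were to be named by size of the line difference, and every called gene for VGF. PER1, NQO1, GCLM, CBR1, CUL3, TXNRD1 and GPX2 were named after their values were seen. LINC00473 was not matched and is not analysed here, and 1 gene that the naming rule selects is not reported here. Fibroblast, leukocyte and erythroid markers were also summed: H1299 libraries held 1.62 to 2.58, 111 to 127 and 0 to 0.431 CPM, against 21.4 to 27.3, 62.0 to 87.4 and 0.0956 to 0.763 CPM in A549 libraries. CD68 made up most of the leukocyte sum.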

Additional observations from a re-analysis of the deposited data

How the results depend on the processing

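The line differences of NRAS, STK11, NFE2L2, SMARCA2 and NF1 kept their direction and their call under all alternatives, with log2 fold changes with empty vector of 1.10 to 1.31, 0.35 to 0.51, -0.52 to -0.27, -0.92 to -0.61 and -1.37 to -1.14. With empty vector 6 to 8 of the 8 genes were called and with VGF 5 to 6. Scaling moved the median feature of the line contrasts by 0.11 (upper quartile), 0.17 (FPKM plus 1), 0.22 (FPKM plus 0.1) and 0.12 or 0.11 (FPKM plus 1, no filter). KEAP1 turned to 0.0839, 0.0859 and 0.0839 with empty vector in the 3 FPKM fits, and to 0.121, 0.124 and 0.121 with VGF, with 0.0195 by upper-quartile scaling. Relative to the median feature these were -0.09, -0.13, -0.04, -0.05, -0.09, 0.01 and -0.09. HRAS turned to 0.0190, 0.0197 and 0.0190 with VGF in FPKM. SMARCA4 with VGF was called by DESeq2 (adjusted p = 0.0463), limma voom (0.0283), upper-quartile scaling (0.0229) and FPKM (0.00574, 0.0074 and 0.0152).

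The VGF effect changed sign for some of the genes. In H1299 NRAS was at 0.000323 with RLE factors and 0.000404 with the line fitted alone, and SMARCA4 at 0.0247, 0.0275 and 0.0247 in FPKM. The difference between lines was 0.000743 for NFE2L2 by upper-quartile scaling and -0.0292, -0.0318 and -0.0292 for SMARCA2 in FPKM. Leaving out each library gave, in H1299, -0.0364 to 0.0254 for NRAS, -0.0598 to 0.10 for HRAS, -0.0514 to 0.0648 for STK11, -0.0351 to 0.0484 for NFE2L2 and -0.0313 to 0.0922 for SMARCA2. In A549 it gave -0.0974 to 0.0111 for HRAS, -0.0174 to 0.0599 for NFE2L2, -0.138 to 0.429 for SMARCA4 and -0.0155 to 0.0833 for SMARCA2. The difference between lines ran from -0.0192 to 0.141 for HRAS, -0.00948 to 0.107 for STK11, -0.00704 to 0.0883 for KEAP1, -0.0564 to 0.0287 for NFE2L2, -0.515 to 0.0590 for SMARCA4 and -0.0587 to 0.0704 for SMARCA2.

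Features called for VGF in A549 numbered 144, against 709 by DESeq2, 334 by limma voom, 74 with FPKM plus 0.1 and 247 with FPKM plus 1 and no filter, and 52 to 130 without each library. In H1299 they numbered 2, against 128 by DESeq2, 1 by limma voom, 5 with no filter, 5, 6 and 4 in FPKM, 4 with the line fitted alone and 1 to 4 without each library. For the difference they numbered 29, against 279 by DESeq2, 19 by limma voom, 19 with FPKM plus 0.1 and 18 to 36 without each library. For the line contrasts they ran from 13610 to 14346 with empty vector and 13639 to 14230 with VGF without each library. No pairing by replicate number was visible: over 18 same-number pairs of groups the correlation of deviations was -0.110 to 0.0887, 0 over 0.1. Such correlations cannot show whether libraries of the same number were handled together. With the replicate number as a block, 43, 1 and 2 features were called in A549, H1299 and the difference, 7 and 5 of the 8 genes were still called between the lines, and the calls of SHC1 (adjusted p = 0.074), CD68 (0.0628) and DUSP5 (0.0697 in A549, 0.0634 for the difference) were lost. The cause was not tested. SMARCA4, at 452 to 1375 counts, and HRAS, at 682 to 946, were the genes with the fewest reads. The line difference with empty vector had an SE of 0.194 for SMARCA4 and 0.0891 for HRAS. Without A549 VGF library 2 the adjusted p of that SMARCA4 difference by edgeR went from 0.00375 to 1.2e-06.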
